A study of Mus musculus with 30 samples.

Results

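The transcripts described here encode 10 enzymes of triglyceride synthesis: the glycerol-3-phosphate acyltransferases Gpam, Gpat3 and Gpat4, the next acyltransferase Agpat2, the lipins Lpin1, Lpin2 and Lpin3, the diacylglycerol acyltransferases Dgat1 and Dgat2, and the monoacylglycerol acyltransferase Mogat1. They were chosen by gene symbol, and the annotation of the array gave each of the 10 exactly 1 probe set of its own, among 18781 genes with such a probe set and 28815 probe sets in all. RNA came from epididymal white adipose tissue (WAT, the fat pad beside the testis), liver (LIV) and skeletal muscle (SM) of male C57Bl/6 mice (C57Bl/6 J in the study's methods) aged 10 to 12 weeks, kept on normal chow. One group had no food for 24 h and the other ate ad libitum over the same 24 h, with 5 mice in each group, labelled as biological replicates. Expression was measured on whole-transcript Affymetrix arrays, 30 in all, as log2 values after robust multi-array average (RMA) normalization. Values are given for 28 of them. The arrays fed LIV 4 and fasted SM 5 resembled the rest of their groups least and were left out, so that fed LIV and fasted SM hold 4 arrays and the other 4 groups hold 5.

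Triglyceride is built on a glycerol backbone. A glycerol-3-phosphate acyltransferase adds the first fatty acid to glycerol-3-phosphate, an acylglycerophosphate acyltransferase such as Agpat2 adds the next and yields phosphatidic acid, a lipin removes the phosphate to give diacylglycerol, and a Dgat enzyme adds the last fatty acid. Diacylglycerol can also be made by a shorter route, in which Mogat1 acylates monoacylglycerol, and phosphatidic acid and diacylglycerol both feed the synthesis of phospholipids. Fat stores triglyceride after meals and releases fatty acids in fasting, liver re-esterifies part of the fatty acids that reach it, and lipin 1 is also known as a nuclear coactivator of fatty acid oxidation genes in liver.

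The tissue markers set the tissues apart. The mean of 7 hepatocyte markers lay between 12.4 and 12.6 on the LIV arrays and at or below 6.21 elsewhere, and the mean of 8 muscle fibre markers lay between 12.5 and 12.6 on the SM arrays and at or below 5.40 elsewhere. The mean of 8 adipocyte markers lay between 11.4 and 12.0 in WAT and between 5.07 and 5.61 in LIV, but between 7.32 and 9.37 in SM, so that the SM arrays carried adipocyte transcripts in varying amounts. Array medians over all probe sets ranged from 4.91 to 5.16, and the median of the whole table, 5.02, is used below as a limit under which a signal is called dim. In bulk tissue, fewer cells of a type and less RNA per cell cannot be told apart.

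In WAT, fasting split the pathway: Gpam, Gpat4 and Lpin1 rose, whereas Gpat3, Agpat2, Dgat2 and Mogat1 fell. In LIV, Gpat3, Lpin1, Lpin2 and Dgat1 rose and no member fell by the test. In SM, Gpat3, Lpin1 and Lpin2 rose and Agpat2 fell. Lpin1 was the 1 member of the 10 that rose in all 3 tissues. The call needed an adjusted p below 0.05 together with a 1.3-fold change or more, with p from limma, a linear model fitted to all 28815 probe sets and adjusted over all of them (Benjamini-Hochberg). By this rule 7 of the 10 members changed in WAT, where 13.2% of all probe sets did (6.93% higher and 6.23% lower). In LIV 4 of 10 were called, all of them higher, against 6.55% of all probe sets (3.12% higher and 3.43% lower). In SM 4 of 10 were called, against 11.9% (6.35% higher and 5.52% lower). Of all probe sets, 41.8% were dim in every group, which no member was, so these shares are not matched for signal level. The median fasting change of the 10 members was 0.16 in WAT, 0.29 in LIV and −0.10 in SM on the log2 scale, and over all probe sets it was 0.011, 0.026 and −0.0042.

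**Figure D1:**
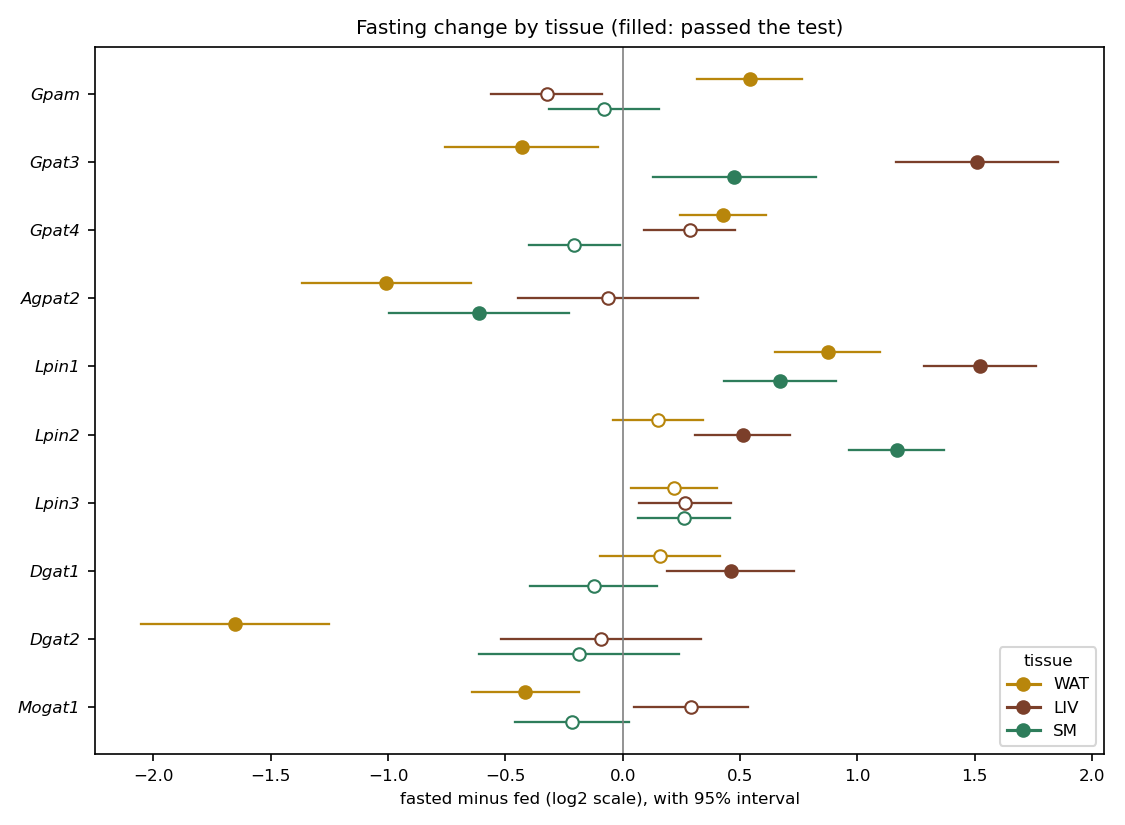
Fasting change of each of the 10 genes (y axis) as fasted minus fed on the log2 scale (x axis) in WAT, LIV and SM, with the 95% interval of the linear model. Filled points passed the test and open points did not: Lpin1 is filled and to the right of 0 in all 3 tissues, Dgat2 lies at −1.65 in WAT, and Gpat3 lies left of 0 in WAT and right of 0 in LIV and SM.

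Among the enzymes of the first step, Gpat3 took opposite directions in fat and liver. In LIV the log2 values of Gpat3, an isoform of the endoplasmic reticulum, were 5.96, 5.83, 5.92 and 5.96 on the fed LIV arrays and 7.29, 7.60, 7.52, 7.44 and 7.30 on the fasted LIV arrays. The highest fed array lay more than 1 log2 unit below the lowest fasted array. Gpat3 thus rose by 1.51 (SE 0.17, 2.85-fold, adjusted p = 2.57e-07) in LIV, from a low level, since the fed LIV minus fed WAT difference was −3.03 on the log2 scale. In WAT, where it was highest, the values were 8.87, 9.03, 9.32, 8.62 and 8.89 on the fed WAT arrays and 8.83, 8.29, 8.14, 8.86 and 8.45 on the fasted WAT arrays. The groups overlapped, and Gpat3 fell by 0.43 (SE 0.16, 1.35-fold, adjusted p = 0.0453). In SM the values were 6.40, 6.26, 6.39, 5.52 and 5.62 on the fed SM arrays and 6.57, 6.34, 6.42 and 6.72 on the fasted SM arrays. Here the groups overlapped as well, with fed SM 4 and 5 well below the other fed arrays, and Gpat3 rose by 0.48 (SE 0.17, 1.39-fold, adjusted p = 0.0420). Neither the WAT nor the SM call held with all 30 arrays, with an adjusted p of 0.0657 and 0.0878, and removal of single arrays ended the WAT call in 12 of 28 cases and the SM call in 5 (fed SM 4 or 5, fasted SM 1, 3 or 4). The difference of the changes was itself large: LIV minus WAT 1.94 (adjusted p = 8.10e-07), LIV minus SM 1.03 (adjusted p = 0.00272) and SM minus WAT 0.91 (adjusted p = 0.00642).

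Gpam encodes the isoform of the outer mitochondrial membrane. In WAT its log2 values were 10.34, 10.63, 10.60, 10.26 and 10.53 on the fed WAT arrays and 11.22, 10.78, 10.82, 11.41 and 10.84 on the fasted WAT arrays. All 5 fasted arrays lay above all 5 fed arrays, and Gpam rose by 0.54 (SE 0.11, 1.45-fold, adjusted p = 0.000328). In LIV the values were 10.43, 10.29, 10.14 and 10.35 on the fed LIV arrays and 9.98, 9.98, 10.02, 10.06 and 9.85 on the fasted LIV arrays. Every fasted LIV array lay below every fed one, yet the difference of −0.32 (95% interval −0.56 to −0.09) missed the threshold, with an adjusted p of 0.0613. It passed when fed LIV 3 was left out (−0.38, adjusted p = 0.0471). In SM the difference was −0.08 (adjusted p = 0.708) with overlapping groups. The change in LIV minus that in WAT was −0.86 (adjusted p = 0.000222), and that in SM minus that in WAT was −0.62 (adjusted p = 0.00611).

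Gpat4, the other isoform of the endoplasmic reticulum, rose in WAT by 0.43 (SE 0.089, 1.35-fold, adjusted p = 0.00053). Its WAT values were 8.16, 8.29, 8.53, 8.34 and 8.39 on the fed WAT arrays and 8.90, 8.69, 8.85, 8.82 and 8.59 on the fasted WAT arrays. The groups did not overlap. In LIV it was higher by 0.29 with an adjusted p of 0.0453, but 1.22-fold is under the minimum of the call, and in SM the difference was −0.21 (adjusted p = 0.129). The change in SM minus that in WAT was −0.63 (adjusted p = 0.000868), and the change in LIV was 0.49 above that in SM (adjusted p = 0.0109).

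Agpat2, the acyltransferase that makes phosphatidic acid and whose loss is known to cause lipodystrophy, fell in WAT. Its values were 11.47, 11.54, 11.44, 11.07 and 11.37 on the fed WAT arrays and 10.68, 10.15, 10.19, 10.48 and 10.35 on the fasted WAT arrays. The highest fasted array lay below the lowest fed array, and Agpat2 fell by 1.01 (SE 0.18, 2.01-fold, adjusted p = 6.41e-05). In LIV the values were 11.45, 11.32, 11.22 and 11.29 on the fed LIV arrays and 11.40, 11.17, 11.29, 11.12 and 11.34 on the fasted LIV arrays. They overlapped, with a difference of −0.06 (95% interval −0.44 to 0.32), and the changes in LIV and WAT differed by 0.95 (adjusted p = 0.00939). In SM the values were 8.59, 7.83, 8.22, 7.20 and 7.21 on the fed SM arrays and 7.28, 7.15, 7.27 and 7.09 on the fasted SM arrays. Fed SM 1, 2 and 3 were high, whereas fed SM 4 and 5 lay among the fasted arrays. The change of −0.61 (SE 0.19, 1.53-fold, adjusted p = 0.0167) passed the test in SM, but not when fed SM 1, fed SM 3 or fasted SM 4 was left out, with an adjusted p of up to 0.0595, nor when SM was fitted on its own (adjusted p = 0.125).

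Of the 3 lipins, Lpin1 rose in all 3 tissues, Lpin2 in LIV and SM, and Lpin3 was called in none. For Lpin1, the main lipin of fat and muscle, the WAT values were 10.61, 10.72, 10.73, 10.47 and 10.54 on the fed WAT arrays and 11.49, 11.50, 11.38, 11.77 and 11.30 on the fasted WAT arrays, and every fasted array exceeded every fed one. The LIV values were 9.05, 8.75, 8.99 and 9.18 on the fed LIV arrays and 10.11, 10.49, 10.37, 10.93 and 10.67 on the fasted LIV arrays. The fed LIV arrays lay near 9 and the fasted ones above 10. In SM the values were 10.79, 10.97, 10.79, 11.04 and 10.97 on the fed SM arrays and 11.56, 11.54, 11.59 and 11.64 on the fasted SM arrays, again without overlap. Lpin1 rose by 0.87 in WAT (SE 0.11, 1.83-fold, adjusted p = 5.49e-07), by 1.52 in LIV (SE 0.12, 2.87-fold, adjusted p = 2.48e-10) and by 0.67 in SM (SE 0.12, 1.59-fold, adjusted p = 7.08e-05). These 3 calls held under all alternatives that were run and with each of the 28 arrays left out. The rise in LIV exceeded that in WAT by 0.65 (adjusted p = 0.00435) and that in SM by 0.85 (adjusted p = 0.000445). Fed LIV had the lowest Lpin1 level of the 3 fed tissues, with a difference of −1.62 from WAT and of −1.92 from SM, and the fasted LIV mean was 10.5, beside 10.6 in fed WAT.

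Lpin2, the lipin most abundant in liver, showed another order of tissues. In SM its values were 5.20, 5.45, 5.47, 5.31 and 5.15 on the fed SM arrays and 6.33, 6.36, 6.47 and 6.78 on the fasted SM arrays. The lowest fasted array lay clearly above the highest fed array, and Lpin2 rose by 1.17 (SE 0.099, 2.25-fold, adjusted p = 7.79e-10). In LIV the values were 10.11, 10.01, 10.14 and 10.19 on the fed LIV arrays and 10.42, 10.72, 10.60, 10.83 and 10.54 on the fasted LIV arrays, again without overlap, for a rise of 0.51 (SE 0.099, 1.42-fold, adjusted p = 0.000583). In WAT the groups overlapped and differed by 0.15 (adjusted p = 0.283). The change in SM exceeded that in WAT by 1.02 (adjusted p = 3.88e-06) and the change in LIV minus that in SM was −0.66 (adjusted p = 0.00125), so that Lpin1 had its largest rise in LIV and Lpin2 in SM. Lpin3, the lipin known best from intestine, stayed close to the dim limit, with group means between 5.08 and 5.56. It was higher in fasted mice by 0.22 in WAT (adjusted p = 0.0768), by 0.27 in LIV (adjusted p = 0.0651) and by 0.26 in SM (adjusted p = 0.0479), the last at 1.20-fold, under the minimum of the call. The 3 lipins thus all had positive fasting differences in all 3 tissues, 5 of the 9 of them called.

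Promoter sequences were available for 7 of the 10 genes from RefSeq (mouse build GRCm38.p6), with 11 start sites among them, and Gpat4, Dgat1 and Dgat2 were not in that table. The 250 bases upstream of the start are shown for Lpin1, Lpin2 and Gpat3, the members that rose in both LIV and SM, read 5′ to 3′ along the gene. Motifs found are in capitals: the glucocorticoid core AGAACA (its reverse complement is TGTTCT), the cyclic AMP core TGACG (reverse complement CGTCA) and the E-box CACGTG.
Lpin1, chr12:16610967-16611216, minus strand: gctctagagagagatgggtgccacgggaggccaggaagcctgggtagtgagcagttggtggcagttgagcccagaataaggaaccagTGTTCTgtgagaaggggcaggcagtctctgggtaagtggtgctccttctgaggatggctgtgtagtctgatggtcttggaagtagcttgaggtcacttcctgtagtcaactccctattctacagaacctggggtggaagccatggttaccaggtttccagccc
Lpin2, first of 3 start sites, chr17:71183282-71183531, plus strand: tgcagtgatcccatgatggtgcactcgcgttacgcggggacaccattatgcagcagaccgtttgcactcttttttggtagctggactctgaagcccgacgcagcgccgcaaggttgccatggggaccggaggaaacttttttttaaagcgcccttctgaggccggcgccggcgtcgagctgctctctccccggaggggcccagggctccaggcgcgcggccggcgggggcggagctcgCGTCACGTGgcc
Gpat3, chr5:100845979-100846228, plus strand: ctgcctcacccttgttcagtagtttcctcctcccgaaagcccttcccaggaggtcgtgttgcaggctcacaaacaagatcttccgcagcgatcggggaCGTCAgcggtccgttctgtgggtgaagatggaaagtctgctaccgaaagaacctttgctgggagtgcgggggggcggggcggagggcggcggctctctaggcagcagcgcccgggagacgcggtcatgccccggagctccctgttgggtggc
The Lpin1 window held 1 glucocorticoid core, from −163 to −158 relative to the start. The Lpin2 window held an E-box from −9 to −4 that overlaps a cyclic AMP core from −12 to −8, and the Gpat3 window a cyclic AMP core from −152 to −148. On both strands, AGAACA occurred in 16.1% of all 32851 promoter windows of that length, TGACG in 17.8% and CACGTG in 6.02%. The full cyclic AMP element TGACGTCA (1.55% of windows) and the sterol element TCACNCCAC (1.05%) were in none of the 11 windows. Among the other windows, the third Lpin2 start and the first Lpin3 start each held 1 AGAACA and the next Gpam start held 2 TGACG, while no motif was found for Agpat2, Mogat1, the first Gpam start, the middle Lpin2 start or the other Lpin3 start. These matches are descriptions of the letters in short windows.

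The last step showed the largest fall. Dgat2, an enzyme of the endoplasmic reticulum and lipid droplet, had WAT values of 12.70, 12.77, 12.60, 12.44 and 12.85 on the fed WAT arrays and 11.24, 11.12, 11.27, 10.54 and 10.94 on the fasted WAT arrays. All fasted arrays lay more than 1 log2 unit below all fed arrays, and Dgat2 fell by 1.65 (SE 0.20, 3.14-fold, adjusted p = 2.27e-07). In LIV its values were 11.66, 11.68, 11.69 and 11.70 on the fed LIV arrays and 11.55, 11.59, 11.68, 11.50 and 11.64 on the fasted LIV arrays. They overlapped, and the difference was −0.09 (95% interval −0.52 to 0.33, adjusted p = 0.849). In SM the values were 10.42, 9.90, 10.05, 8.86 and 9.03 on the fed SM arrays and 9.34, 9.59, 9.70 and 9.23 on the fasted SM arrays. As for Agpat2, fed SM 1, 2 and 3 were above fed SM 4 and 5, and the difference of −0.19 did not pass (adjusted p = 0.605). The WAT change differed from that in LIV by 1.56 (adjusted p = 0.000227) and from that in SM by 1.47 (adjusted p = 0.000485).

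Dgat1, the unrelated enzyme of the same reaction, was called in LIV and in neither of the other tissues. Its LIV values were 8.60, 8.47, 8.57 and 8.48 on the fed LIV arrays and 8.97, 9.11, 8.92, 9.02 and 8.95 on the fasted LIV arrays. The groups did not overlap, and the rise was 0.46 (SE 0.13, 1.38-fold, adjusted p = 0.0185), which became 0.44 (adjusted p = 0.0556) without fed LIV 2. The WAT values were 10.49, 10.63, 10.68, 10.61 and 10.60 on the fed WAT arrays and 10.98, 10.33, 10.65, 11.14 and 10.72 on the fasted WAT arrays. The fasted arrays spread on both sides of the fed ones, with a difference of 0.16 (95% interval −0.10 to 0.42, adjusted p = 0.422). In SM the difference was −0.12 (adjusted p = 0.585). The change in LIV exceeded that in SM by 0.58 (adjusted p = 0.0307), but its difference of 0.30 from the change in WAT did not pass (adjusted p = 0.299, 95% interval −0.07 to 0.67). Removal of single arrays ended the call on the LIV minus SM difference in 8 of 28 cases.

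Mogat1, which feeds diacylglycerol into the pathway from monoacylglycerol, was above the dim limit in WAT only. Its WAT values were 7.57, 7.81, 7.66, 7.53 and 7.60 on the fed WAT arrays and 7.27, 7.09, 7.24, 7.23 and 7.27 on the fasted WAT arrays. The groups did not overlap, and Mogat1 fell by 0.41 (SE 0.11, 1.33-fold, adjusted p = 0.00553). Without fed WAT 2 the change was −0.37, under the minimum fold. In LIV, at signals all below the dim limit, the values were 3.72, 3.83, 3.72 and 3.91 on the fed LIV arrays and 4.06, 4.04, 4.14, 4.25 and 3.95 on the fasted LIV arrays. All fasted arrays lay above all fed arrays, but the difference of 0.29 did not pass (adjusted p = 0.113). In SM the difference was −0.22 (adjusted p = 0.214). The change in LIV exceeded that in WAT by 0.70 (adjusted p = 0.00251) and that in SM by 0.51 (adjusted p = 0.0366). The latter compares signals under the dim limit in both tissues, and its call was lost in 8 of 28 removals of single arrays, without moderated variances (adjusted p = 0.0520) and after cyclic loess (adjusted p = 0.0742).

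**Figure D2:**
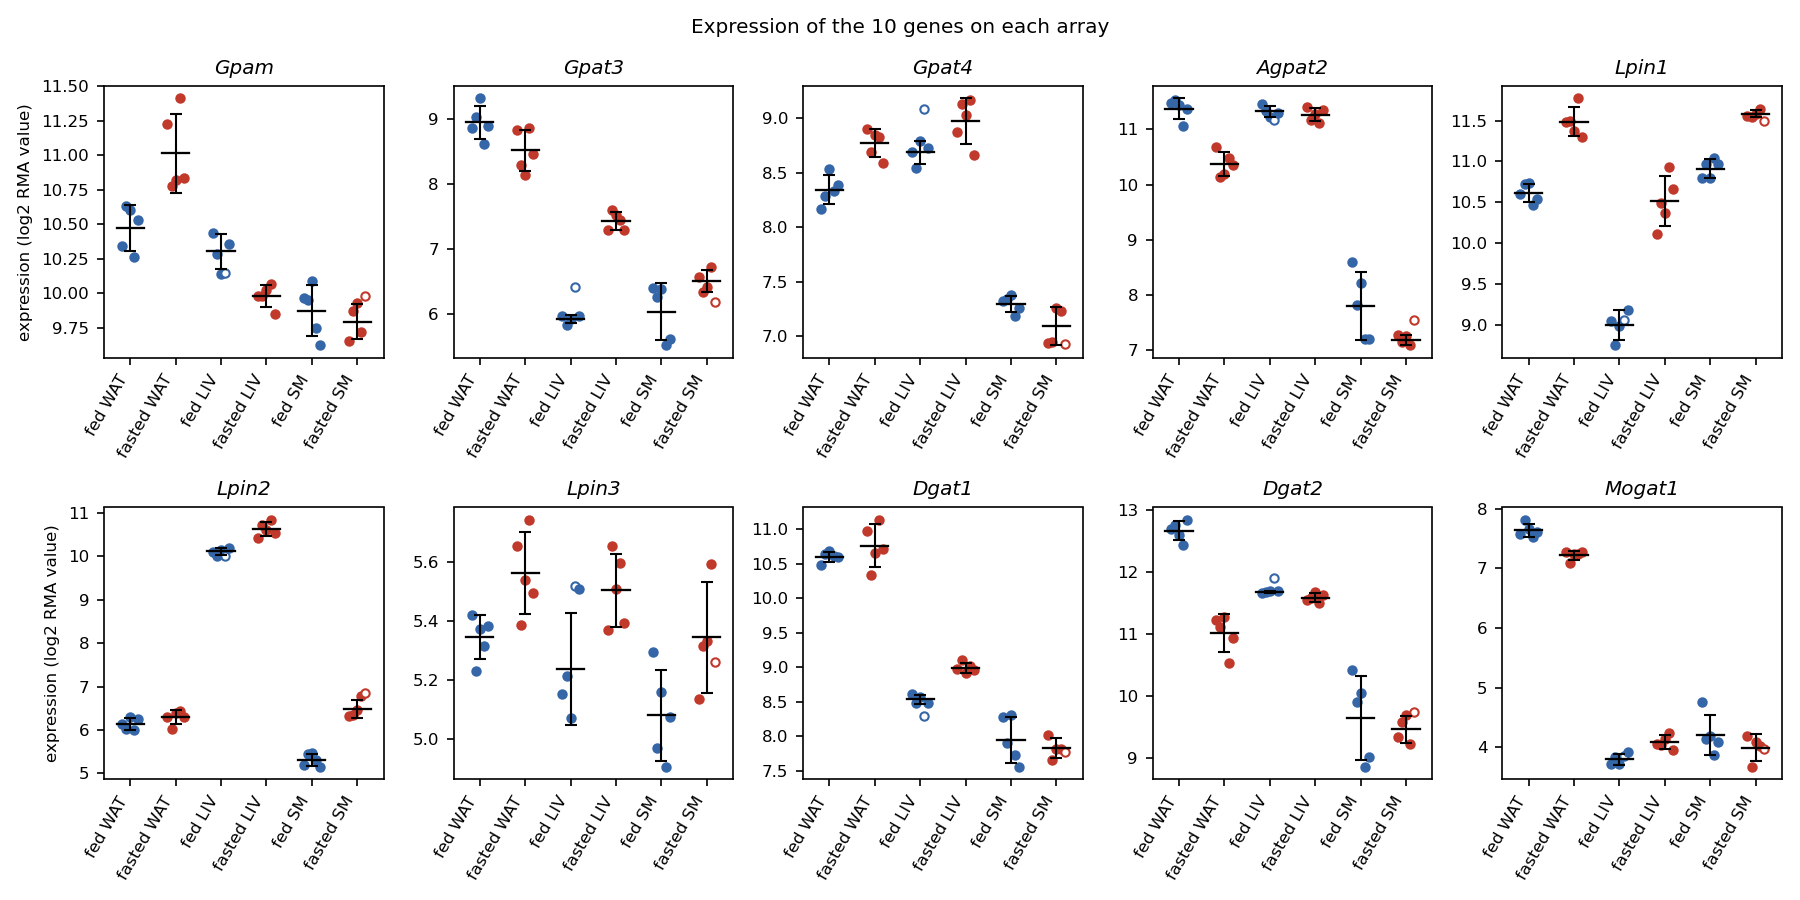
Log2 RMA value (y axis, a scale of its own in each panel) of each of the 10 genes on every array in the 6 groups of diet and tissue (x axis), fed in blue and fasted in red, with the mean and SD of the arrays used as black lines. Open circles are the arrays left out, fed LIV 4 and fasted SM 5. Lpin1 separates fed from fasted in every tissue, Dgat2 and Agpat2 fall in WAT, and fed SM 4 and 5 lie below the other fed SM arrays for Gpam, Gpat3, Gpat4, Agpat2, Dgat1, Dgat2 and Mogat1.

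The fasting change differed between tissues for most members. Taken as LIV minus WAT, the change was higher for 5 members and lower for 1, where 13.5% of all probe sets were called (6.45% higher and 7% lower). As SM minus WAT it was higher for 3 and lower for 2 (12.8% of all probe sets, 6.23% higher and 6.61% lower), and as LIV minus SM higher for 5 and lower for 1 (12.8%, 6.41% higher and 6.42% lower). Lpin3 was the 1 member with no called difference in any of these comparisons.

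To compare enzymes of 1 step without setting the signals of different probes against each other, the difference between 2 enzymes within each array was compared between fasted and fed arrays by a two-sided exact permutation test, in 21 comparisons, of which 17 passed after Benjamini-Hochberg adjustment. The smallest p these group sizes allow is 0.00794. The pairs share members and arrays with each other and with the calls above, so the passes are not 17 separate results. The share of passing pairs among other genes was not computed. In WAT, Dgat2 shifted against Dgat1 by −1.81, a 3.51-fold change in their ratio (exact permutation p = 0.00794, adjusted p = 0.0139). In LIV the same ratio shifted by −0.55 at the same p, beside the called rise of Dgat1 and no call for Dgat2, and in SM the shift of −0.06 did not pass (exact permutation p = 0.794). The balance of Gpat3 and Gpat4 moved in opposite ways: by −0.86 in WAT (exact permutation p = 0.00794), by 1.23 in LIV (exact permutation p = 0.00794) and by 0.68 in SM (exact permutation p = 0.0159). Gpam shifted against Gpat4 by −0.61 in LIV (exact permutation p = 0.00794), and its shifts of 0.11 in WAT and 0.13 in SM did not pass. Lpin1 gained on Lpin2 by 0.72 in WAT and by 1.01 in LIV (both exact permutation p = 0.00794), and shifted by −0.50 against it in SM (exact permutation p = 0.0159). In SM, Lpin1 gained 0.41 on Lpin3 (exact permutation p = 0.0317, adjusted p = 0.0392), a call lost in 8 of 28 removals of single arrays.

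**Figure D3:**
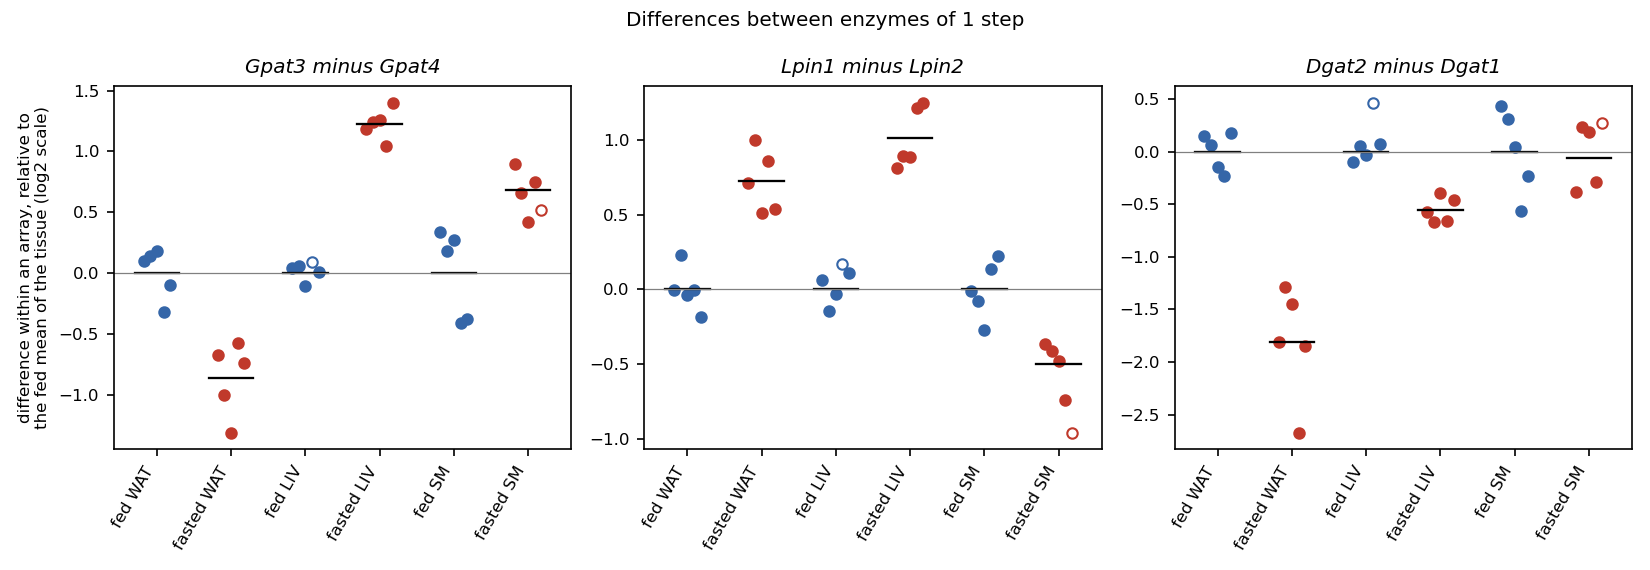
Difference between 2 enzymes of 1 step within each array, relative to the mean of the fed arrays used in that tissue (y axis, log2 scale), for Gpat3 minus Gpat4, Lpin1 minus Lpin2 and Dgat2 minus Dgat1 in the 6 groups (x axis). Black lines are group means over the arrays used and open circles the arrays left out. In WAT the fasted mean lies at −1.81 for Dgat2 minus Dgat1, and for Gpat3 minus Gpat4 it lies at −0.86 in WAT and 1.23 in LIV.

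Agpat2 and Dgat2 were highest on the SM arrays with the most adipocyte transcripts. The mean of the 8 adipocyte markers was 9.37, 8.71, 9.13, 7.32 and 7.78 on fed SM 1 to 5 and 8.28, 7.82, 7.86 and 7.33 on fasted SM 1 to 4. Of the 8 markers, Plin1, Retn and Lep fell in SM with fasting and none rose. The same fed arrays, 1, 2 and 3, all lay above fed SM 4 and 5 for 7 of the 10 members. These were Gpam, Gpat3, Gpat4, Agpat2, Dgat1, Dgat2 and Mogat1, but not the 3 lipins. The gap was small for Gpat4 (7.32 against 7.26) and for Mogat1 (4.15 against 4.08, under the dim limit). This split was seen in the data first, and its share over all probe sets was not computed. The adipocyte mean was also used as a covariate. It holds Plin1, Retn and Lep, which were lower in fasted SM, so adjusting for it can also remove part of a fasting change. The fit therefore cannot separate adipocyte content from the fast. The covariate fit used the SM arrays alone. There the difference of Agpat2 was −0.22 and not called (adjusted p = 0.250). Without the covariate, SM fitted on its own gave −0.61 for Agpat2 and no call either (adjusted p = 0.125). The Dgat2 difference was 0.25 with the covariate (adjusted p = 0.298), the other direction from that without it. In the covariate fit Gpat3 rose by 0.73 (adjusted p = 0.00390), Lpin1 by 0.60 (adjusted p = 0.000142) and Lpin2 by 1.16 (adjusted p = 0.000146). For Gpat3, SM fitted on its own without the covariate gave 0.48 and no call (adjusted p = 0.110). The mean of 6 slow muscle fibre markers split the fed SM arrays in the same way. It was 9.92, 10.0, 8.13, 4.86 and 6.79 on fed SM 1 to 5, and from 8.07 to 9.66 on the fasted ones. The split of the fed arrays thus went with both adipocyte and slow fibre markers, which cannot be told apart here. The part of the slow fibre mean in the SM values was not tested. In WAT the adipocyte mean was between 11.8 and 12.0 fed and between 11.4 and 11.9 fasted, where Lep fell and no other of the 8 was called. The macrophage mean over 7 markers was between 8.46 and 8.66 fed and between 8.55 and 9.11 fasted in WAT, with Cd163 and Cd14 called higher. The others were not called. Adgre1 (8.21 fed, 8.04 fasted), Mrc1 (9.10, 8.89) and Lyz2 (10.98, 10.95) had lower fasted means, and Cd68 and Csf1r higher ones. The part of the macrophage mean in the WAT values was not tested. In WAT the mean of 4 brown fat markers was between 4.28 and 4.55 fed and between 3.81 and 3.93 fasted. These means all lay under the dim limit. Cidea and Cox7a1 were called lower, whereas Ucp1 (3.06 fed, 3.09 fasted) and Elovl3 (3.12, 3.17) were under that limit and not called. In LIV the macrophage mean was between 7.01 and 7.41 fed and between 6.55 and 7.10 fasted, with Adgre1, Csf1r and Lyz2 called lower. Without a call, Cd68 and Mrc1 had lower fasted means there, and Cd163 and Cd14 higher ones. Of the adipocyte markers, Cidec was called higher in LIV. In SM the macrophage mean was between 6.24 and 6.66 fed and between 6.37 and 6.98 fasted, with Cd68 and Cd163 called higher. Without a call, Adgre1 (5.89 fed, 5.76 fasted) and Mrc1 (7.11, 6.79) had lower fasted means in SM, and Csf1r, Lyz2 and Cd14 higher ones. The part of these shifts in the members' values was not tested.

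**Figure D4:**
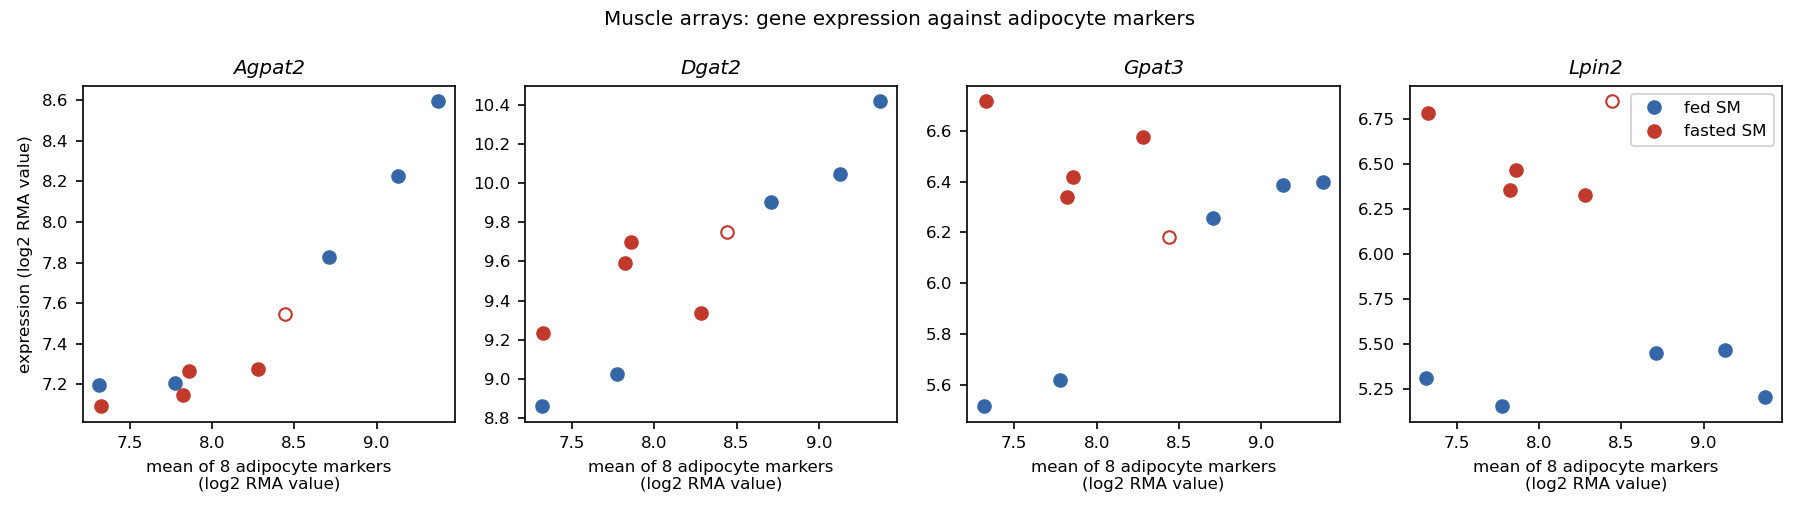
Log2 RMA value of Agpat2, Dgat2, Gpat3 and Lpin2 (y axis, a scale of its own in each panel) against the mean of 8 adipocyte markers (x axis, log2 RMA value) on each SM array, fed in blue and fasted in red, with fasted SM 5 as an open circle. The 3 fed arrays with adipocyte means above 8.5 have the highest Agpat2 and Dgat2 values, while Lpin2 is between 5.15 and 5.47 on all fed arrays and above 6.3 on all fasted ones.

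In fed mice the tissues differed widely in these transcripts. Between fed LIV and fed WAT 6 of 10 members differed, with 39.4% of all probe sets called (18% higher in LIV and 21.4% lower). Lpin2 was the 1 member higher in LIV by the test, by 3.97 (15.7-fold), and Gpat3, Lpin1, Dgat1, Dgat2 and Mogat1 were lower in LIV, with differences from −0.99 for Dgat2 to −3.03 for Gpat3 among those above the dim limit in both tissues. Mogat1 lay under that limit in LIV and SM, so the size of its difference from WAT is not given. Gpam, Agpat2 and Lpin3 did not differ by the test, and Gpat4 was higher in LIV by 0.35 (adjusted p = 0.0027), under the minimum fold. Fed SM was below fed WAT for 8 of 10 members and above it for none (41.7% of all probe sets differed, 18.8% higher and 22.9% lower), most for Agpat2, with a difference of −3.57, and Dgat2, with −3.02, while Lpin1 and Lpin3 were not called. Between fed LIV and fed SM 8 of 10 differed, 6 higher in LIV and 2 lower, of which Mogat1 was under the dim limit in both (42.8% of all probe sets, 20.1% higher and 22.7% lower), and Lpin2 was 4.80 higher in LIV (27.8-fold). The order of fed levels was thus WAT, LIV, SM for Dgat1 and Dgat2, SM or WAT above LIV for Lpin1, with WAT and SM not separated by the call, and LIV, WAT, SM for Lpin2.

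Other genes of the pathway were counted in the same way. A list of genes that supply glycerol phosphate and acyl-CoA or act beside the members had 16 of 21 genes with a probe set of their own. In WAT 3 of these fell, 0 rose and 13 were not called (18.8% called, against 13.2% of all probe sets). The falls were Gpd1, the cytosolic enzyme that makes glycerol-3-phosphate (−1.37, adjusted p = 2.35e-12), its relative Gpd1l (−0.52, adjusted p = 6.18e-06), and Mogat2, a relative of Mogat1 (−1.19, adjusted p = 5.13e-07). Like Agpat2, Dgat2 and Mogat1, these transcripts were lower in WAT after the fast. Mogat2 went from a fed WAT mean of 5.73 to a fasted mean of 4.54, which is under the dim limit. In LIV 1 rose and 3 fell (25%, against 6.55%): Agpat3, an acyltransferase of the family of Agpat2, rose by 0.50 (adjusted p = 8.44e-08), and the acyl-CoA synthetases Acsl5 (−0.60) and Acsl4 (−0.40) fell, as did Fitm1 (−0.48), which acts in lipid droplet formation. In SM 0 rose and 3 fell (18.8%, against 11.9%), namely Fitm1 (−0.43), the seipin gene Bscl2 (−0.43) and Acsl4 (−0.39). The median change of the list was −0.067 in WAT, −0.0099 in LIV and −0.20 in SM.

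Of 14 genes of the phospholipid branch, 2 rose and 3 fell in WAT (35.7%, against 13.2% of all probe sets). Crls1, the cardiolipin synthase, rose by 1.71 (3.27-fold, adjusted p = 7.70e-14) and Cds2, which turns phosphatidic acid into CDP-diacylglycerol, by 0.41, while Lpgat1 (−1.54), Pemt (−0.85) and Pcyt2 (−0.48) fell. In LIV 0 of 14 were called by limma at the thresholds used, with 8 at an unadjusted p under 0.05 and 3 at an adjusted p under 0.05 with less than a 1.3-fold change. In SM Cds2 rose by 0.39 and Lpgat1 fell by 0.56 (14.3% of the list, against 11.9% of all probe sets). The median change of the list was −0.14 in WAT, 0.012 in LIV and −0.15 in SM.

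**Figure D5:**
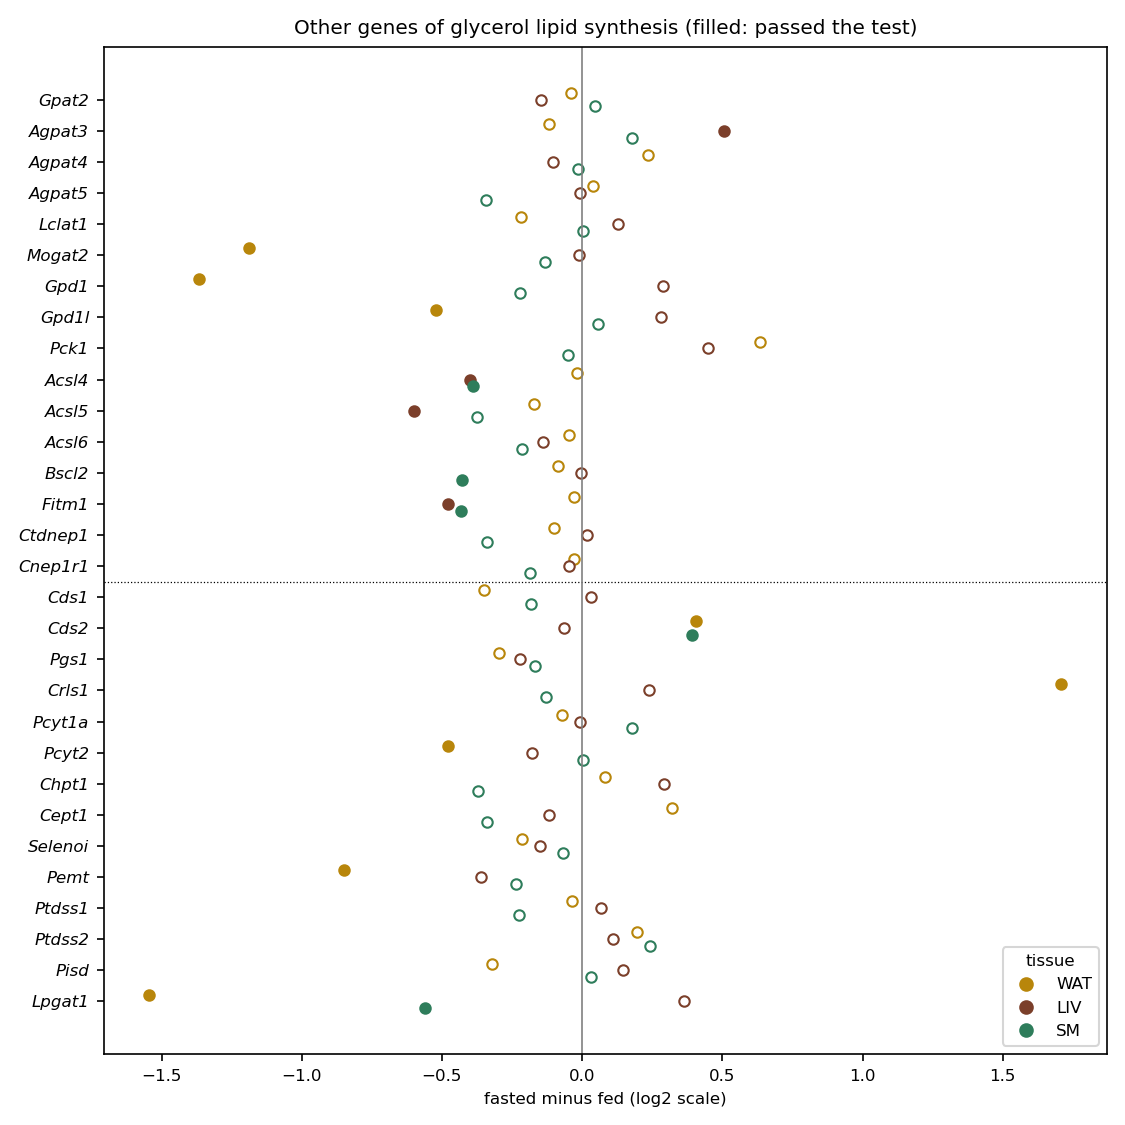
Fasting change on the log2 scale (x axis) of 30 other genes of glycerol lipid synthesis (y axis) in WAT, LIV and SM, with the supply and helper genes above the dotted line and the phospholipid branch below it. Filled points passed the test. In WAT Crls1 lies at 1.71 and Gpd1, Mogat2 and Lpgat1 lie beyond −1, whereas no phospholipid gene is filled in LIV.

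Of 8 regulators known for fat and liver metabolism, Srebf1, a driver of lipogenic genes, fell in all 3 tissues, with changes of −1.59 in WAT, −1.95 in LIV and −0.64 in SM. The coactivator gene Ppargc1a rose in LIV (0.89) and fell in SM (−0.66), and its relative Ppargc1b rose in WAT (0.62) and fell in SM (−0.87). In LIV, Mlxipl, a glucose-responsive factor, fell (−0.82) and Ppara, the receptor for fatty acids, rose by 0.41. Nr3c1, the glucocorticoid receptor, fell in WAT (−0.44). In all, 3 of the 8 were called in WAT, 4 in LIV and 3 in SM, where 13.2%, 6.55% and 11.9% of all probe sets were called, with median changes of 0.019, −0.21 and −0.31.

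The genes whose pattern most resembled that of a member were found by Pearson r over the 28 arrays, after the mean of each tissue had been taken from the values. These points share the fed and fasted groups and the arrays themselves, so the r is a description. For Lpin1 the nearest genes were Catsper2 (r = 0.953), Fkbp5 (0.949) and Ell2 (0.934). For Lpin2 they were Ubtf (0.945), Cebpb (0.943) and Ptcd1 (0.929). Dgat2 was most like Slc25a10 (0.942), Fmr1 (0.930) and Zfp185 (0.921), and Agpat2 was most like Tenm4 (0.918), Alcam (0.916) and Slc2a13 (0.913). Gpat3 was nearest to Agpat3 (0.894), Cpt2 (0.854) and Apex2 (0.852), and Dgat1 to Ppara (0.858), Nrg4 (0.777) and Ptma (0.767). The highest r for the other members was 0.845 for Gpam with Hyls1, 0.843 for Gpat4 with Kif1b and 0.866 for Mogat1 with Mmd. Among the members themselves, Agpat2 and Dgat2 had the highest r with each other, 0.865.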

How the data were processed

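The authors hybridised RNA of WAT, LIV and SM from fed and fasted mice to Affymetrix Mouse Gene 1.1 ST arrays and, per the labels, used RMA and Partek; versions were not given in the sources used here. RMA corrects background, equalises the distribution of probe signals between arrays and summarises probes by median polish, so a change in the total mRNA of a tissue cannot be seen. The deposited log2 values of 28815 probe sets on 30 arrays were used as given; signals before normalization were not used here. Of these probe sets, 21153 name 1 gene, 1867 several, and 5795 are not listed in the annotation.

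Arrays were grouped by the submitters' labels. The 28 arrays entered 1 linear model with 6 group means, fitted with limma 3.58.1 in R 4.3.3 (lmFit, contrasts.fit and eBayes, prior degrees of freedom 4.24), with Benjamini-Hochberg adjustment over all probe sets of a contrast. The arrays left out follow the study's fold changes; its text names fasted SM 1 in place of fasted SM 5, and that set was an alternative. The fit was tested on simulated data. Exact permutation tests used all regroupings of the arrays of 1 tissue. Promoters and figures used Python 3.11.15 and matplotlib 3.10.9. The genes named are the 10 members, called genes of 3 lists (up to 6 per list and tissue by size of change) and the 3 genes most like each called member. Members, lists and tests were chosen with earlier results of these data known. Agpat1, Acsl3, Fitm2, Gk and Acsl1 of the supply list have no probe set of their own here.

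The other settings tried were all 30 arrays, array weights, unmoderated variances, each tissue on its own, blocks for the replicate number, no dim probe sets, only probe sets with 1 gene, averaged probe sets per gene, cyclic loess, other thresholds, and the removal of each array; the adipocyte covariate applied to SM. The number of arrays limits the precision.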

Additional observations from a re-analysis of the deposited data

Results flagged for a closer look

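The array fasted WAT 2 stood apart for Mogat1, with a value of 7.09 against 7.23 to 7.27 on the other 4 fasted WAT arrays, a gap of 0.779 of the range of the group. It was the 1 group of 60 examined that held such an array, and chance alone gives about 1 in 20 groups. The other 4 fasted arrays also lay below all fed ones, and the fall of Mogat1 in WAT was called without it.

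Fasting changes that differed between tissues by a test of the difference itself also stand out. LIV minus WAT was −0.86 for Gpam, 1.94 for Gpat3, 0.95 for Agpat2, 0.65 for Lpin1, 1.56 for Dgat2 and 0.70 for Mogat1. SM minus WAT was −0.62 for Gpam, 0.91 for Gpat3, −0.63 for Gpat4, 1.02 for Lpin2 and 1.47 for Dgat2. LIV minus SM was 1.03 for Gpat3, 0.49 for Gpat4, 0.85 for Lpin1, −0.66 for Lpin2, 0.58 for Dgat1 and 0.51 for Mogat1, the last from signals under the dim limit in both tissues and not called without moderated variances or after cyclic loess. For Gpat3 the changes in LIV and WAT were both called and had opposite signs, but the WAT call was near the threshold (adjusted p = 0.0453) with overlapping groups. That WAT call was lost with all 30 arrays (adjusted p = 0.0657) and in 12 of 28 removals of single arrays. The LIV minus SM call of Dgat1 was lost in 8 of 28 such removals.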

How the results depend on the processing

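Calls near a threshold moved with the processing, and those of Lpin1 in all 3 tissues, Gpam, Agpat2 and Dgat2 in WAT, Gpat3 in LIV and Lpin2 in SM did not change with the arrays used or with the normalization. Gpat3 in WAT and SM lost its call with all 30 arrays, with fasted SM 1 in place of fasted SM 5 left out (adjusted p = 0.0560 and 0.133), with each tissue on its own and without moderated variances. Fitted on their own, SM members were called in 2 cases rather than 4. At an adjusted p under 0.01, 2 members were called in SM and 3 for LIV minus SM changes. A minimum of 1.5-fold left 3 members in WAT, 2 in LIV, 3 for LIV minus SM changes and 5 for fed LIV against fed SM, and 5, 1 and 0 of the other pathway genes in WAT, LIV and SM. With no minimum fold these pathway counts were 15, 9 and 16. The adipocyte covariate, in a fit of the SM arrays alone, left 3 of them in SM. It turned the SM differences of Gpam (0.0169), Dgat1 (0.0813) and Dgat2 (0.247), none called.

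Other values that changed sign were small and not called. With all 30 arrays, LIV minus WAT for Lpin3 was −0.00778, LIV minus SM was −0.0354 for Lpin3 and −0.00894 for Dgat2, and Dgat2 against Dgat1 in SM shifted by 0.00503. With fasted SM 1 left out in place of fasted SM 5, Gpam in SM was 0.00218, LIV minus SM was −0.0268 for Lpin3 and −0.0096 for Dgat2, and Dgat2 against Dgat1 in SM shifted by 0.102. The Lpin3 difference of LIV and SM was −0.0250 with array weights and −0.0653 after cyclic loess. Cyclic loess also ended the call of Mogat1 for LIV minus SM (adjusted p = 0.0742), as did variances without moderation (0.0520), and Lpin2 for LIV minus WAT was then called (0.0272).

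Leaving out single arrays gave 2 to 4 members called in SM, the lowest without fasted SM 4, and 3 to 7 other pathway genes in SM, the lowest without fed SM 1 and the highest without fed SM 2 or 5. The SM shifts of Gpat3 against Gpat4 and against Gpam lost their calls without fasted SM 1 (adjusted p = 0.0703) or 4 (0.0662), and that of Lpin1 against Lpin2 without fasted SM 4 (0.0536), where fewer regroupings were possible. Dgat2 in SM ranged from −0.383 to 0.00621, its LIV minus SM change from −0.0977 to 0.292, and its shift against Dgat1 in SM from −0.203 to 0.0471. For Lpin3 the LIV minus WAT change ranged from −0.00668 to 0.138, SM minus WAT from −0.0385 to 0.113 and LIV minus SM from −0.0648 to 0.0942.

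No source used here says that a number marks 1 mouse or batch. Deviations of fed and fasted arrays of 1 number and tissue correlated between −0.252 and 0.163, over 0.1 in 3 of 13 pairs, and in 1 pair the first array correlated best with its own number. For arrays of 1 number and diet in 2 tissues, r ranged from −0.122 to 0.177, over 0.1 in 6 of 26 pairs, and was best with the own number in 13. The count to be expected for unrelated arrays was not computed. The study's methods describe liver, fat and muscle as dissected in that order from the mice, so the tissues of a diet group came from shared mice. Which arrays belong to the same mouse is not stated, so blocks by number may not match the mice. The main model treats the arrays as independent, and its comparisons between tissues do not take shared mice into account. With the replicate block within tissues, Gpat3 lost its calls in WAT (adjusted p = 0.113), in SM (0.265) and for SM minus WAT (0.0719), as did Gpat4 for LIV minus SM (0.0620) and Mogat1 for fed LIV minus fed SM, while Agpat2 for LIV minus SM (0.0378) and Gpat4 for fed LIV minus fed WAT gained one, and Lpin3 for LIV minus SM turned to −0.0176. A random block of diet and number (consensus correlation 0.0270), added after the data were seen, changed no call.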
